A study of Mus musculus with 12 samples.

Results

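The interferon-stimulated antiviral genes described here are 41 genes that cells switch on in answer to interferon. They were chosen by symbol, and 41 of 41 had a row in the table of 24054 genes and passed the filter on low counts that left 14876 genes for testing. Levels were measured by RNA sequencing of polyadenylated RNA from primary mouse embryonic fibroblasts (MEFs), connective tissue cells grown from embryos and kept in 10% serum, 5% CO2 and 3% O2. The 12 libraries fell into 4 genotypes with 3 libraries each: Blm -/- Recql -/- (Blm Recql KO), Recql -/- (Recql KO), Blm -/- (Blm KO) and wild type (WT). Blm and Recql encode DNA helicases of the RecQ family, and the study asked which transcripts change when either or both are lost. No interferon, virus or other agent is named in the labels. Strain, embryo age and the design of the alleles are not given in the sources used here. Nor do the labels tie each library to its own embryo or culture, so the p-values rest on a spread between libraries that may be partly technical.

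Type I interferons are secreted proteins that bind the receptor made of Ifnar1 and Ifnar2. The receptor's kinases then switch on a complex that holds Stat2 and Irf9, which enters the nucleus and binds short GAAA-rich elements near the start of its target genes. The products of these targets recognise foreign RNA, stop translation, degrade nucleic acids or hold virus particles at membranes. Fibroblasts are a classical source and target of interferon.

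Library totals ran from 47758552 to 59296354 expected counts, so 3 counts correspond to 0.0506 to 0.0628 CPM, counts scaled to a common library total. Blm stood at 5.66, 6.99 and 3.86 CPM in Blm Recql KO, 14.3, 16.4 and 16.1 CPM in Recql KO, 5.64, 3.18 and 3.58 CPM in Blm KO and 21.9, 21.7 and 18.6 CPM in WT, lower wherever the label names its loss. Recql stood at 18.8, 35.6 and 24.7 CPM in Blm Recql KO, 21.7, 24.3 and 29.8 CPM in Recql KO, 21.3, 24.1 and 21.9 CPM in Blm KO and 25.7, 28.1 and 29.3 CPM in WT. The Recql transcript was thus not lower under the labels that name its loss (Recql KO against WT, log2 difference -0.13 ± 0.20 SE; adjusted p = 0.642, edgeR). Recql KO and Blm Recql KO therefore stand for the libraries labelled so, in every direction given here. Sex-linked transcripts also differed: the 4 Y-linked genes examined summed to 3.31, 247 and 6.14 CPM in Blm Recql KO, 276, 29.2 and 0.691 CPM in Recql KO, 254, 1.33 and 3.43 CPM in Blm KO and 254, 234 and 257 CPM in WT. All libraries were rich in fibroblast markers, at 21150 to 49610 CPM summed over 10 genes, and the part of other cell types is given beside the results it touches. That fibroblast sum was 26030, 21150 and 23910 CPM in Recql KO, below every other library, and 34080, 32020 and 31730 CPM in WT. In bulk RNA, more cells that express a gene and more RNA per cell cannot be told apart.

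Many of the interferon-stimulated genes rose in the libraries labelled Recql KO. Of the 41 genes, 21 rose and 1, Ifitm1, fell in Recql KO against WT (edgeR's quasi-likelihood test, Benjamini-Hochberg adjusted p under 0.05 over all genes). That is 51.2% of the genes called higher, beside 14.2% of all genes tested, and 2.44% called lower, beside 15.6%, where 29.9% of all genes were called in either direction. The median log2 fold change over the 41 genes was 2.23, against -0.01 over all genes tested. The 3 Recql KO libraries lay above all 3 WT libraries for 38 genes and below them for Ifitm1, and the groups overlapped for Isg20 and Irf1. Of all genes tested, 23.9% were higher and 25.4% lower without overlap.

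**Figure D1:**
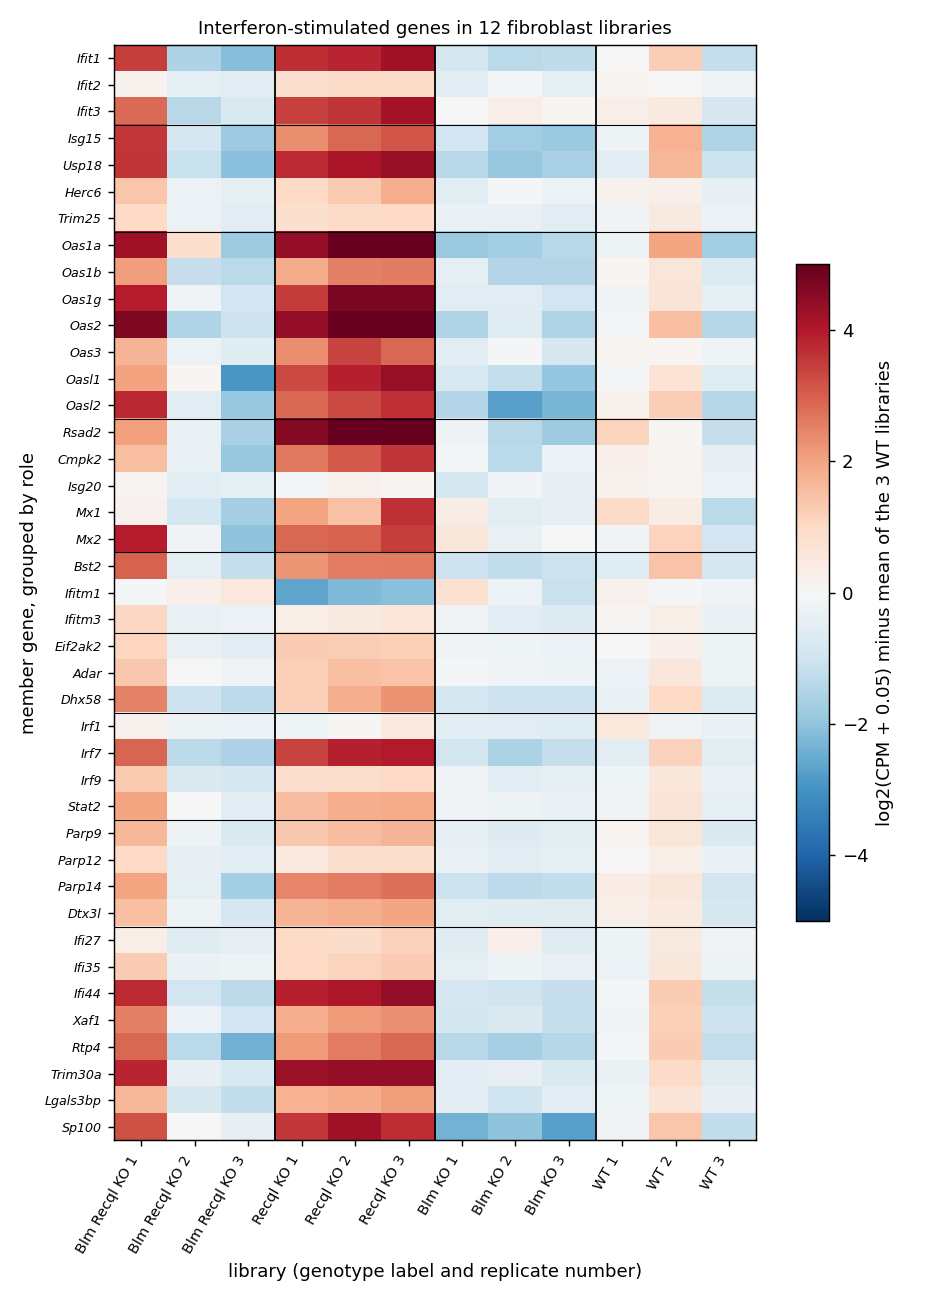
Level of each of the 41 genes (rows, grouped by role) in each of the 12 libraries (columns, by genotype label and replicate number), as log2(CPM + 0.05) minus the mean of the 3 WT libraries; colours are capped at 5 in either direction. The 3 Recql KO libraries and Blm Recql KO replicate 1 are red in most rows, while the other Blm Recql KO libraries and the Blm KO libraries are mostly pale or blue, and Ifitm1 alone is blue in Recql KO.

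The call of many single genes turned on which libraries entered the fit. With each library of the pair left out in turn, the number of genes called in Recql KO against WT ran between 6 and 21. Without WT replicate 3 it was 6 (14.6%, beside 19.7% of all genes) and without WT replicate 1 it was 8 (19.5%, beside 23.5%), both under the share of all genes. Without WT replicate 2 it was 21 (51.2%, beside 24.7%). Without Recql KO replicates 1, 2 and 3 in turn it was 11 (26.8%, beside 19.1%), 9 (22%, beside 17.9%) and 11 (26.8%, beside 23%). Ifitm1 was the 1 gene called lower in each of these fits, and the share called higher was 12.2% to 48.8% of the 41 genes, beside 9.03% to 12% of all genes. Ifit2, Oas3, Oasl1, Rsad2, Cmpk2 and Ifitm1 were called in all 6 of these fits. Herc6 and Parp14 were called in none of them. Oas1a, Oas2, Eif2ak2, Irf7, Stat2, Dtx3l, Ifi27 and Ifi44 were called in 1 each. Without Blm Recql KO replicate 1, which is outside the pair but shares its estimate of the spread, 37 genes were called higher and 1 lower, beside 28.3% of all genes. All 3 WT libraries were high in Y-linked transcripts. Among libraries high in them, which left Recql KO replicate 1 as the lone Recql KO library, 9 genes were called higher and 1 lower (24.4%, beside 7.39% of all genes) with a median log2 fold change of 1.78. The Y-linked level as a covariate left 7 higher and 1 lower, with a median of 1.66. Those 8 genes are 19.5% of the 41, under the 23.6% of all genes called in that fit.

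None of the 41 genes was called in Blm KO against WT by edgeR, where 0.753% of all genes were. An unadjusted p under 0.05 was seen for 2 of them, beside 18.9% of all genes. Without Blm Recql KO replicate 1 it was seen for 25 (61%, beside 18.5% of all genes). In a fit of Blm KO and WT only, which tested 39, it was seen for 18 (43.9% of the 41, beside 18.4%). Neither fit called any of the 41 at an adjusted p under 0.05. DESeq2 gave an adjusted p for 36 of the 41 and called 1, Sp100, lower, beside 6.49% of all genes. The log2 fold change was below 0 for 40 genes, with a median of -0.68 beside 0.00 over all genes tested. The 3 Blm KO libraries lay below all 3 WT libraries for 14 genes, against 12.1% of all genes lower without overlap, and the groups overlapped for 27. WT replicate 3 was the lowest WT library in 37 of the 41 genes.

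The single knockouts were also compared directly. Against Blm KO, 36 genes rose in Recql KO and Ifitm1 fell, which is 90.2% of the genes beside 40.2% of all genes called in either direction. Isg20, Mx2, Ifitm3 and Irf9 were not called. The median log2 fold change was 3.14, and 40 genes had all 3 Recql KO libraries above all 3 Blm KO libraries, beside 27.3% of all genes higher without overlap. The comparisons with WT share the WT libraries, and this one shares its libraries with both of them, so they are not independent of one another.

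**Figure D2:**
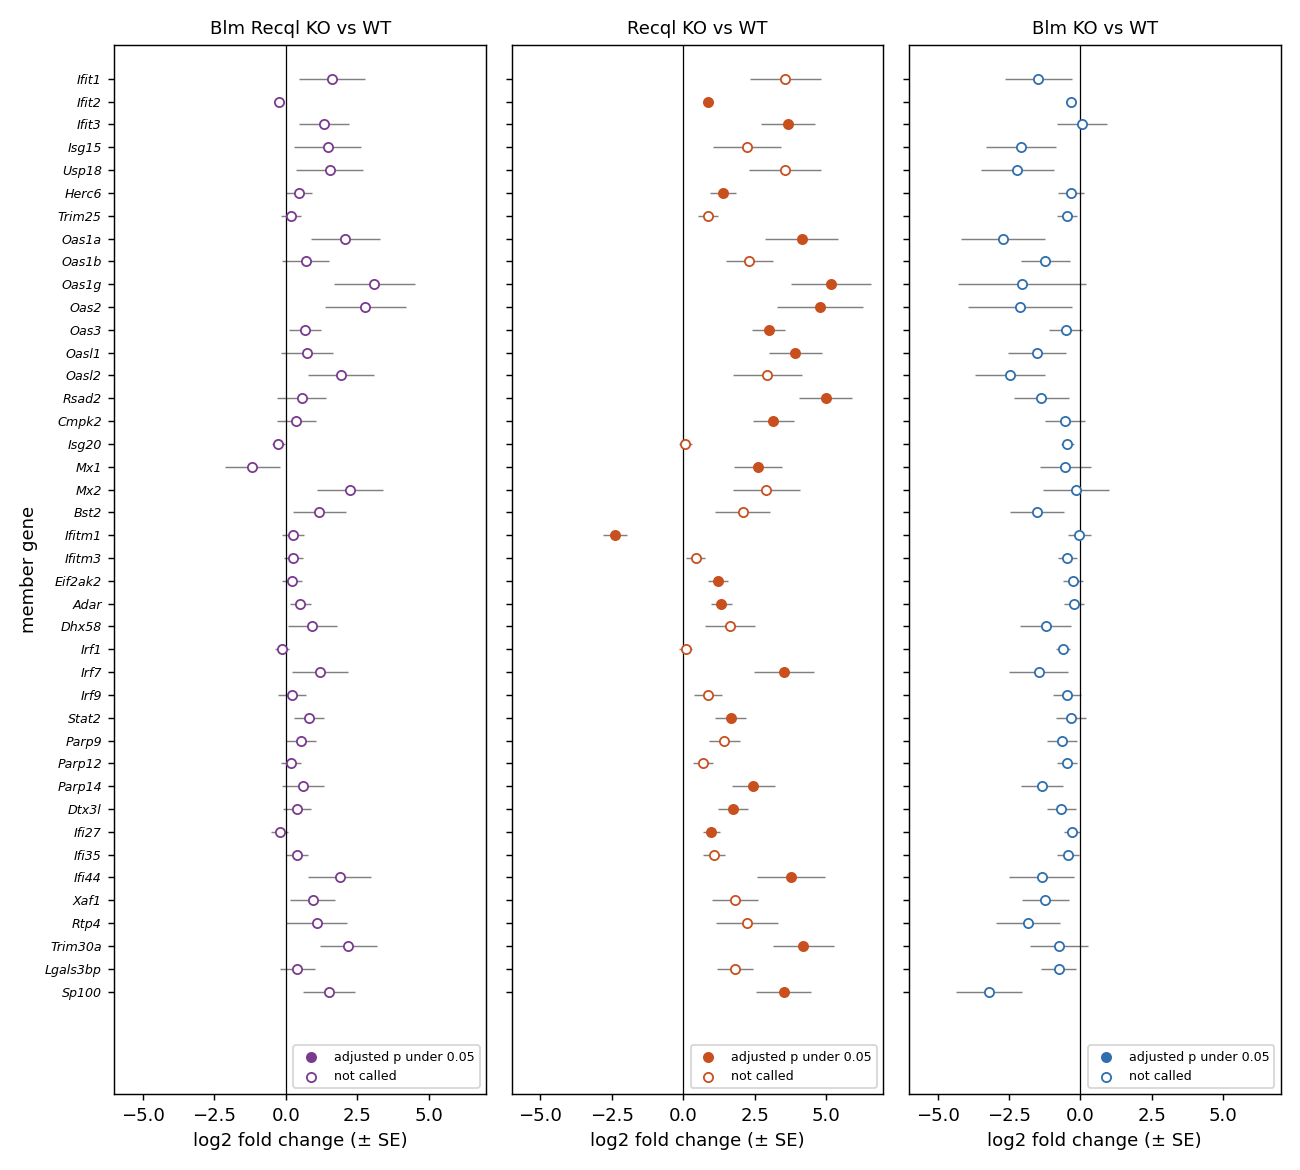
Log2 fold change of each gene against WT, with the standard error (SE) of the edgeR model, for Blm Recql KO, Recql KO and Blm KO; filled points have an adjusted p under 0.05. In Recql KO 21 points are filled right of 0 and Ifitm1 left of it, and in the other panels no point is filled.

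The IFIT proteins bind foreign RNA and block its translation. Ifit1, which recognises RNA whose cap lacks the host's methyl mark, stood at 132, 4.09 and 2.7 CPM in Blm Recql KO, 156, 166 and 219 in Recql KO, 6.71, 4.69 and 4.89 in Blm KO and 11.7, 28.4 and 5.14 in WT. Ifit2 stood at 42.8, 27.4 and 26.4 CPM in Blm Recql KO, 66.1, 71.5 and 71.9 in Recql KO, 26.6, 35.5 and 28 in Blm KO and 42.2, 38.6 and 33.3 in WT. Ifit3, another member of the family, stood at 57.3, 3.06 and 4.75 CPM in Blm Recql KO, 86, 97.4 and 145 in Recql KO, 8.17, 10.1 and 8.62 in Blm KO and 10.2, 11.3 and 4.51 in WT. For all of them the 3 Recql KO libraries were above every WT and Blm KO library without overlap, and Blm Recql KO replicate 1 was the highest of its group. Ifit2 rose 1.84-fold in Recql KO against WT (log2 difference 0.88 ± 0.18 SE; adjusted p = 0.00589, edgeR) and Ifit3 12.6-fold (log2 difference 3.66 ± 0.94 SE; adjusted p = 0.0157, edgeR). Ifit1 spread widely in WT and in Blm Recql KO, and its difference was not called (log2 difference 3.58 ± 1.24 SE; adjusted p = 0.0509, edgeR). It was called in a fit of Recql KO and WT only, and in the fit without Blm Recql KO replicate 1. Against Blm KO all of them rose, with log2 fold changes of 5.05, 1.22 and 3.61 in the order named. Ifit1 and Ifit3 had counts that were not whole in 12 and 11 libraries, which shows that reads were shared with other genes, so the split between near-identical copies is uncertain.

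Isg15 is a ubiquitin-like protein that is attached to other proteins. Isg15 stood at 66.8, 3.2 and 1.59 CPM in Blm Recql KO, 28.9, 42.5 and 50.7 in Recql KO, 2.9, 1.67 and 1.55 in Blm KO and 4.79, 19.2 and 2.01 in WT. Usp18, which removes Isg15 and dampens the interferon receptor, stood at 38.7, 1.46 and 0.731 CPM in Blm Recql KO, 43.5, 55.1 and 66.8 in Recql KO, 1.22, 0.826 and 1 in Blm KO and 2.14, 10.4 and 1.5 in WT. Herc6, the main ligase that attaches Isg15 in mouse cells, stood at 23, 7.13 and 6.19 CPM in Blm Recql KO, 17.1, 21.6 and 30.6 in Recql KO, 5.81, 8.15 and 7.11 in Blm KO and 9.81, 10.2 and 6.45 in WT. Recql KO lay above WT without overlap in all of these, and for Isg15 the highest library of all was Blm Recql KO replicate 1. Only Herc6 of this group was called in Recql KO against WT (log2 difference 1.39 ± 0.45 SE; adjusted p = 0.0395, edgeR). Isg15 (log2 difference 2.23 ± 1.19 SE; adjusted p = 0.181, edgeR) and Usp18 (log2 difference 3.55 ± 1.26 SE; adjusted p = 0.0549, edgeR) were not. In both, WT replicate 2 and Blm Recql KO replicate 1 stood well above the other libraries of their groups. Without Blm Recql KO replicate 1 both were called. In a fit of Recql KO and WT only, Usp18 was called and Isg15 was not. The call of Herc6 was lost whichever library of the pair was left out. Against Blm KO all of the group rose, with Usp18 54-fold higher in Recql KO (log2 difference 5.76 ± 1.43 SE; adjusted p = 0.00954, edgeR). Trim25, a ubiquitin ligase of the RNA-sensing pathway, was at least 132.7 CPM in each Recql KO library and at most 103 CPM in WT, and was not called (log2 difference 0.88 ± 0.35 SE; adjusted p = 0.0804, edgeR).

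The oligoadenylate synthetases (OAS) sense double-stranded RNA and make a signal that activates RNase L, which degrades RNA. Oas1a stood at 12.6, 1.16 and 0.146 CPM in Blm Recql KO, 13.9, 21.4 and 22.7 in Recql KO, 0.136, 0.158 and 0.204 in Blm KO and 0.517, 2.58 and 0.152 in WT. Oas2 stood at 7.22, 0.0527 and 0.0913 CPM in Blm Recql KO, 6, 13.1 and 10.7 in Recql KO, 0.0508, 0.141 and 0.0511 in Blm KO and 0.222, 0.778 and 0.0569 in WT. Oas3 stood at 2.34, 0.544 and 0.439 CPM in Blm Recql KO, 3.63, 7.54 and 5.28 in Recql KO, 0.458, 0.633 and 0.358 in Blm KO and 0.739, 0.744 and 0.588 in WT. In each, Recql KO was above every WT library, and WT replicate 2 was the highest WT library for Oas1a and Oas2 while the WT libraries were close together for Oas3. Oas3 rose 7.92-fold (log2 difference 2.99 ± 0.58 SE; adjusted p = 0.00442, edgeR), Oas1a 17.7-fold (log2 difference 4.14 ± 1.28 SE; adjusted p = 0.0331, edgeR) and Oas2 27.6-fold (log2 difference 4.79 ± 1.49 SE; adjusted p = 0.0342, edgeR) in Recql KO against WT. The OAS-like Oasl1, which in mouse holds back translation of Irf7, stood at 2.02, 0.492 and 0.0183 CPM in Blm Recql KO, 5.04, 7.5 and 10.3 in Recql KO, 0.254, 0.176 and 0.0852 in Blm KO and 0.444, 0.761 and 0.284 in WT. Oasl2 stood at 129, 6.37 and 2.48 CPM in Blm Recql KO, 69.2, 93.7 and 117 in Recql KO, 3.32, 1.39 and 1.86 in Blm KO and 10.6, 22.2 and 3.47 in WT. Oas1b stood at 4.09, 0.386 and 0.329 CPM in Blm Recql KO, 3.48, 5.59 and 5.75 in Recql KO, 0.661, 0.299 and 0.307 in Blm KO and 0.98, 1.44 and 0.55 in WT. These 3 also had no overlap between Recql KO and WT, but Oasl1 alone of them was called (log2 difference 3.93 ± 0.94 SE; adjusted p = 0.0114, edgeR). Oas1g was called too, from levels of at most 0.104 CPM in WT, near the level of 3 counts. Oasl2 (log2 difference 2.95 ± 1.2 SE; adjusted p = 0.0859, edgeR) and Oas1b (log2 difference 2.32 ± 0.84 SE; adjusted p = 0.0586, edgeR) were not. All 7 OAS genes rose in Recql KO against Blm KO, with log2 fold changes of 3.50 to 7.21. The size of the largest, that of Oas1g, is uncertain, as Oas1g stood at 0.017, 0.0176 and 0 CPM in Blm KO, under the level of 3 counts. Oas2 was near that level in Blm KO replicates 1 and 3. The 5 Oas1, Oas2 and Oas3 genes lie together on chromosome 5 (mm10 chr5:120730333-120907521). Oas1a, Oas1b, Oas1g and Oas3 had counts that were not whole in 8 to 12 libraries, so the split of their reads is uncertain, while the counts of Oas2 were whole in every library.

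**Figure D3:**
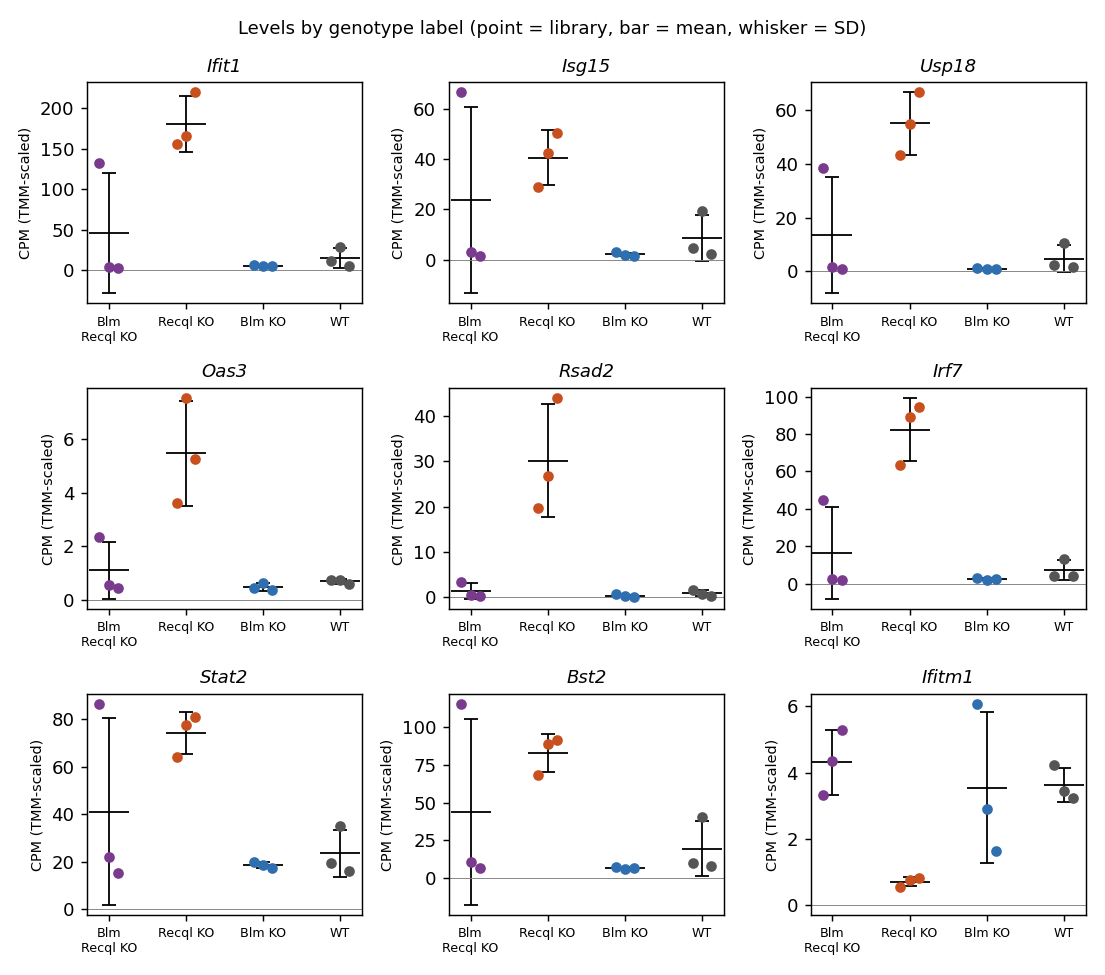
TMM-scaled CPM of 9 of the genes in each library (points) by genotype label, with the mean and SD of the 3 libraries; the CPM axis is linear and differs between panels. Recql KO stands above WT and Blm KO in every panel but Ifitm1, where it is lowest, and in Blm Recql KO one library, replicate 1, stands apart from the others in every panel but Ifitm1.

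Rsad2 (viperin) makes a nucleotide that stops viral RNA synthesis, and Cmpk2, its neighbour on chromosome 12, is a nucleotide kinase of mitochondria. Rsad2 stood at 3.36, 0.597 and 0.219 CPM in Blm Recql KO, 19.7, 26.7 and 43.8 in Recql KO, 0.644, 0.264 and 0.187 in Blm KO and 1.72, 0.795 and 0.322 in WT. Cmpk2 stood at 4.32, 1.12 and 0.365 CPM in Blm Recql KO, 9.39, 12.7 and 18.3 in Recql KO, 1.37, 0.545 and 1.21 in Blm KO and 1.77, 1.64 and 1.1 in WT. In both genes every Recql KO library was above every other library of the study. Rsad2 rose 31.7-fold in Recql KO against WT (log2 difference 4.99 ± 0.92 SE; adjusted p = 0.00347, edgeR), and Cmpk2 rose 8.92-fold (log2 difference 3.16 ± 0.71 SE; adjusted p = 0.00889, edgeR). Mx1 and Mx2 are GTPases that trap virus components. Mx1 stood at 0.207, 0.0702 and 0.0183 CPM in Blm Recql KO, 0.834, 0.568 and 2.74 in Recql KO, 0.237, 0.105 and 0.119 in Blm KO and 0.388, 0.242 and 0.0379 in WT. Mx2 stood at 14.2, 0.79 and 0.183 CPM in Blm Recql KO, 6.8, 7.32 and 10.2 in Recql KO, 1.34, 0.685 and 0.869 in Blm KO and 0.795, 1.99 and 0.436 in WT. Mx1 was called in Recql KO against WT (log2 difference 2.61 ± 0.83 SE; adjusted p = 0.0375, edgeR), and Mx2, whose highest library was Blm Recql KO replicate 1, was not (log2 difference 2.91 ± 1.18 SE; adjusted p = 0.0854, edgeR). The annotation lists Mx2 and Oas1b as polymorphic pseudogenes, genes that are intact in some strains only. Isg20, an RNA exonuclease, stood at 9.34, 5.69 and 6.19 CPM in Blm Recql KO, 8.17, 9.78 and 9.03 in Recql KO, 4.63, 7.71 and 6.29 in Blm KO and 9.44, 9.36 and 6.84 in WT. Its groups overlapped, and its log2 fold change was near 0 (log2 difference 0.07 ± 0.23 SE; adjusted p = 0.836, edgeR).

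Among membrane restriction factors, Bst2 (tetherin) holds budding virus at the cell surface, and the Ifitm proteins block virus entry. Bst2 stood at 115, 10.6 and 6.56 CPM in Blm Recql KO, 68.4, 88.9 and 91.2 in Recql KO, 7.29, 6.34 and 6.99 in Blm KO and 9.87, 40.7 and 8.3 in WT. Ifitm3 stood at 329, 124 and 130.3 CPM in Blm Recql KO, 201, 219.9 and 245 in Recql KO, 143, 108 and 102 in Blm KO and 169, 194 and 126 in WT. Ifitm1 stood at 3.32, 4.34 and 5.28 CPM in Blm Recql KO, 0.537, 0.74 and 0.799 in Recql KO, 6.07, 2.9 and 1.64 in Blm KO and 4.21, 3.44 and 3.22 in WT. Bst2 and Ifitm3 were above WT in every Recql KO library, yet neither was called (Bst2, log2 difference 2.08 ± 0.95 SE; adjusted p = 0.121, edgeR; Ifitm3, log2 difference 0.44 ± 0.33 SE; adjusted p = 0.336, edgeR). Ifitm1 went the other way, and every Recql KO library was below every other library of the study. It fell in Recql KO against WT (log2 difference -2.39 ± 0.42 SE; adjusted p = 0.00271, edgeR) and against Blm KO (log2 difference -2.35 ± 0.42 SE; adjusted p = 0.00184, edgeR). It was higher in Blm Recql KO than in Recql KO (log2 difference 2.64 ± 0.42 SE; adjusted p = 0.00206, edgeR). It was also the one gene of the 41 called in the interaction, which asks whether the difference that goes with the Recql label depends on the Blm label (log2 difference 2.67 ± 0.57 SE; adjusted p = 0.0186, edgeR; of all genes 10.4% were called, 5.86% with a positive value). The interaction adjusted p was 0.0507 without Recql KO replicate 1, and then no gene of the 41 was called.

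Eif2ak2 (PKR) stops translation when it binds double-stranded RNA, Adar edits such RNA, and Dhx58 (LGP2) tunes the sensors of viral RNA. Eif2ak2 stood at 178, 64.9 and 57 CPM in Blm Recql KO, 205, 199.6 and 195 in Recql KO, 74.5, 72.9 and 68.8 in Blm KO and 84.7, 101 and 71.6 in WT. Adar stood at 106, 40.7 and 37.3 CPM in Blm Recql KO, 94.7, 118 and 113 in Recql KO, 38.7, 36.6 and 35.2 in Blm KO and 33.7, 61 and 35 in WT. Dhx58 stood at 16.6, 1.41 and 1.15 CPM in Blm Recql KO, 6.8, 10.4 and 14.1 in Recql KO, 1.56, 1.39 and 1.38 in Blm KO and 2.29, 5.9 and 1.86 in WT. The Recql KO libraries were above all WT libraries in each, and the Blm KO libraries of Dhx58 were below all WT libraries. Eif2ak2 rose 2.33-fold (log2 difference 1.22 ± 0.35 SE; adjusted p = 0.0248, edgeR) and Adar 2.51-fold (log2 difference 1.33 ± 0.37 SE; adjusted p = 0.0213, edgeR) in Recql KO against WT, while Dhx58 was not called (log2 difference 1.64 ± 0.87 SE; adjusted p = 0.18, edgeR).

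The transcription factors of the group carry the signal to its targets. Irf7, which drives the interferon alpha genes, stood at 44.6, 2.37 and 1.99 CPM in Blm Recql KO, 63.2, 89.2 and 94.5 in Recql KO, 3.13, 1.95 and 2.61 in Blm KO and 3.99, 13.2 and 4 in WT. Stat2 stood at 86.2, 21.8 and 15.2 CPM in Blm Recql KO, 64.1, 77.3 and 81.1 in Recql KO, 19.8, 18.7 and 17.5 in Blm KO and 19.4, 34.9 and 16.2 in WT. Irf9, the DNA-binding partner of Stat2, stood at 74.2, 18.4 and 16.4 CPM in Blm Recql KO, 54.6, 56 and 60.4 in Recql KO, 26.7, 20.4 and 21.4 in Blm KO and 25.9, 44.6 and 23.9 in WT. All had Recql KO above WT without overlap, and in Stat2 and Irf9 Blm Recql KO replicate 1 was higher still. Irf7 rose 11.6-fold (log2 difference 3.54 ± 1.05 SE; adjusted p = 0.0289, edgeR) and Stat2 3.16-fold (log2 difference 1.66 ± 0.54 SE; adjusted p = 0.0419, edgeR) in Recql KO against WT, and Irf9 was not called (log2 difference 0.86 ± 0.49 SE; adjusted p = 0.211, edgeR). Irf1, which answers more to interferon gamma and inflammatory signals, stood at 23.4, 16.9 and 16.6 CPM in Blm Recql KO, 17.5, 20.8 and 28.2 in Recql KO, 14.1, 13.7 and 13.4 in Blm KO and 28.7, 17.8 and 16 in WT. Recql KO and WT overlapped in Irf1 (log2 difference 0.09 ± 0.23 SE; adjusted p = 0.802, edgeR), although it rose in Recql KO against Blm KO (log2 difference 0.69 ± 0.24 SE; adjusted p = 0.0382, edgeR).

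Parp9, Parp12 and Parp14 are ADP-ribosyltransferases, and Dtx3l is the ubiquitin ligase that works with Parp9. Parp14 stood at 61, 10.8 and 4.66 CPM in Blm Recql KO, 82.5, 91.6 and 103 in Recql KO, 7.2, 6.22 and 6.47 in Blm KO and 19.6, 22.9 and 8 in WT. It rose 5.49-fold in Recql KO against WT (log2 difference 2.46 ± 0.75 SE; adjusted p = 0.0322, edgeR), with no overlap between those groups. Dtx3l was called as well (log2 difference 1.74 ± 0.51 SE; adjusted p = 0.0279, edgeR), and Parp9 (log2 difference 1.44 ± 0.53 SE; adjusted p = 0.064, edgeR) and Parp12 (log2 difference 0.69 ± 0.35 SE; adjusted p = 0.156, edgeR) were not. Among the other genes, Ifi44 stood at 51.2, 1.93 and 1.52 CPM in Blm Recql KO, 57.6, 64 and 80.8 in Recql KO, 2.13, 1.88 and 1.7 in Blm KO and 3.57, 9.46 and 1.67 in WT. Ifi27 stood at 36.2, 19 and 20.9 CPM in Blm Recql KO, 56.9, 54.1 and 63.6 in Recql KO, 19.1, 34 and 18.8 in Blm KO and 24.2, 38.7 and 25.3 in WT. The highest WT library was replicate 2 for both, and Recql KO lay above it. Xaf1, a pro-apoptotic protein, stood at 41.2, 5.79 and 3.64 CPM in Blm Recql KO, 25.4, 31.1 and 35.3 in Recql KO, 3.76, 4.32 and 3.17 in Blm KO and 6.45, 16.4 and 3.45 in WT. Lgals3bp, a secreted glycoprotein, stood at 412, 75.1 and 56.3 CPM in Blm Recql KO, 435, 472 and 552 in Recql KO, 89.2, 66.5 and 88.3 in Blm KO and 113, 203 and 97.8 in WT. Both had all Recql KO libraries above all WT libraries, and neither was called (Xaf1, log2 difference 1.80 ± 0.81 SE; adjusted p = 0.116, edgeR; Lgals3bp, log2 difference 1.82 ± 0.63 SE; adjusted p = 0.0509, edgeR). Ifi44 rose 13.7-fold (log2 difference 3.78 ± 1.18 SE; adjusted p = 0.0347, edgeR) and Ifi27 1.98-fold (log2 difference 0.98 ± 0.30 SE; adjusted p = 0.0308, edgeR) in Recql KO against WT. Trim30a and Sp100, a protein of nuclear bodies, also rose, with log2 fold changes of 4.20 and 3.51, while Ifi35 and Rtp4 were not called. Counts of Trim25, Eif2ak2, Parp9, Dtx3l, Ifi44 and Xaf1 were not whole in 12 libraries, those of Trim30a in 11 and those of Ifitm3 in 10. The split of their reads with other genes is uncertain too.

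The promoters of some of the genes show the element that the complex of Stat2 and Irf9 and other interferon regulatory factors bind. RefSeq start sites on GRCm38.p6, the build of the files, were available for 31 of the 41 genes. GAAANNGAAA, or its reverse complement TTTCNNTTTC, lay within 250 bases before to 50 bases after the start in 12 of them (38.7%), against 3.99% of 27025 genes and 3.44% of their 32851 windows. Matches may overlap one another, and a match is a description of the letters only. Stretches around the matches are shown for 6 genes, read 5′ to 3′ on the gene's strand, with the matches in capitals. Ifit1 (chr19:34640770-34640828, plus strand) and Ifit3 (chr19:34583358-34583431, plus strand) hold separate matches. Isg15 (chr4:156200860-156200911, minus strand) and Oas1a (chr5:120907526-120907560, minus strand) hold overlapping ones. Oas3 (chr5:120777710-120777749, minus strand) and Rsad2 (chr12:26456548-26456587, minus strand) hold 1 each.
Ifit1: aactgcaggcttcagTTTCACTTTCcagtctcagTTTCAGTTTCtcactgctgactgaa
Ifit3: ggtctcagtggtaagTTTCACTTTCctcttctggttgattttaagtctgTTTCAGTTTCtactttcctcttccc
Isg15: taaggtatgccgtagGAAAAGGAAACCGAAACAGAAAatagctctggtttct
Oas1a: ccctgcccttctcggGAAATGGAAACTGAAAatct
Oas3: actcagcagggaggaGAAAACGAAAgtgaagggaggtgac
Rsad2: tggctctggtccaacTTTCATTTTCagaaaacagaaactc
The 12 genes with a match had a median log2 fold change of 3.28 in Recql KO against WT and 8 of them were called higher, while the 19 with a window and no match had a median of 1.39 and 9 were called higher. No test was made of that difference. Ifit2, Oasl1 and Cmpk2, called in every fit above, have no match in their window, and Ifitm3, which has one, was not called.

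Blm Recql KO did not hold these genes at 1 level. None of the 41 was called in Blm Recql KO against WT by edgeR (0.121% of all genes called) or at an unadjusted p under 0.05 (10.8% of all genes). DESeq2 gave an adjusted p for 36 of them and called none (2.37% of all genes). No gene had the Blm Recql KO libraries apart from WT without overlap, beside 7.31% of all genes higher and 6.82% lower without overlap. Against Blm KO none was called by edgeR either (1.96% of all genes called), 17 had an unadjusted p under 0.05 (23.3% of all genes), and DESeq2 called 7 of 36 higher (9.86% of all genes called). Without Blm Recql KO replicate 3, edgeR called 3 of the 41 (3.44% of all genes).

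The spread came from replicate 1. The median over the 41 genes of log2(CPM + 0.05) minus the WT mean was 1.99 in Blm Recql KO replicate 1, -0.41 in replicate 2 and -0.96 in replicate 3, against 1.98, 2.54 and 2.61 in the Recql KO libraries. It was -0.54, -0.60 and -0.75 in Blm KO and -0.06, 0.60 and -0.62 in WT. The median over all genes was between -0.01 and 0.02 in every library. Replicate 1 was above all WT libraries for 36 genes and above both other Blm Recql KO libraries for 40, the exception being Ifitm1. The summed CPM of the 41 genes, which leans on the abundant ones, was 2667, 633.4 and 550.8 in Blm Recql KO, 2472, 2820 and 3199 in Recql KO, 663, 605 and 581 in Blm KO and 845, 1243 and 649 in WT.

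**Figure D4:**
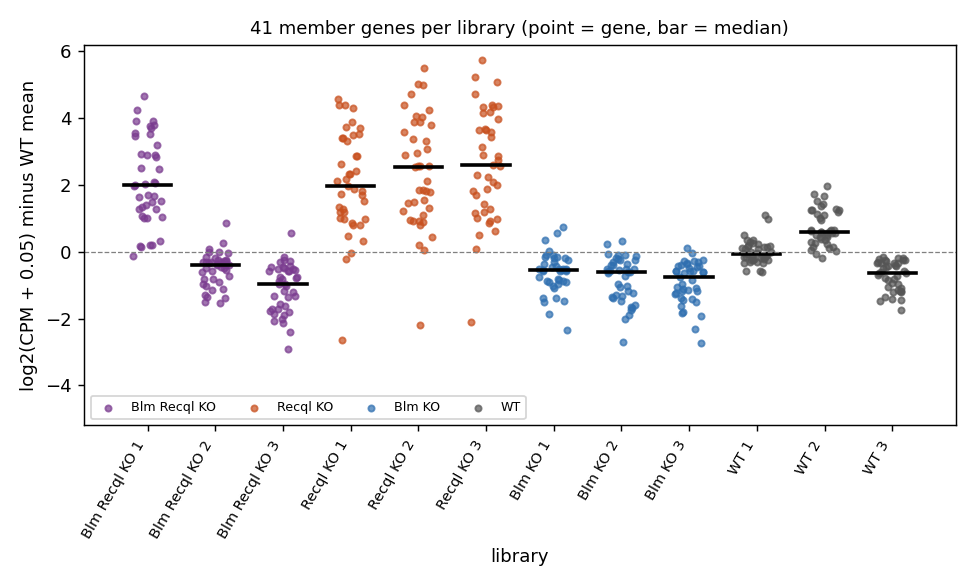
Log2(CPM + 0.05) minus the mean of the 3 WT libraries for the 41 genes (points) in each of the 12 libraries, with the median as a bar. The median is 1.99 in Blm Recql KO replicate 1 and 1.98 to 2.61 in the Recql KO libraries, and below 0 in the other Blm Recql KO libraries, in the Blm KO libraries and in 2 of the 3 WT libraries.

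Replicate 1 did not match Recql KO gene for gene. It lay below the range of the 3 Recql KO libraries for 19 genes, within it for 9 and above it for 13. Rsad2 at 3.36 CPM was 0.112 of the Recql KO mean, Mx1 at 0.207 CPM was 0.150 of it, and Oasl1, Cmpk2 and Oas3 were at 0.265, 0.321 and 0.426 of it. Isg15 at 1.64 times, Mx2 at 1.76 times and Dhx58 at 1.59 times the Recql KO mean lay on the other side, as did Ifitm1 at 4.80 times. These ratios describe 1 library and have no test. Replicate 1 was low in Y-linked transcripts, as was replicate 3, and so was Recql KO replicate 3.

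In the comparison of Blm Recql KO with Recql KO, Ifit2, Oas3, Oasl1, Rsad2, Cmpk2, Mx1 and Ifi27 fell and Ifitm1 rose. Those 8 genes are 19.5% of the 41, beside 24.7% of all genes called. Split by direction, 17.1% of the 41 were called lower, beside 11.6% of all genes, and 2.44% higher, beside 13.2%. The largest difference was in Rsad2 (log2 difference -4.44 ± 0.89 SE; adjusted p = 0.00598, edgeR), and Mx1 (log2 difference -3.78 ± 0.91 SE; adjusted p = 0.0136, edgeR) and Oas3 (log2 difference -2.31 ± 0.56 SE; adjusted p = 0.0139, edgeR) followed the same direction. Mx1 was low in Blm Recql KO, at 0.207, 0.0702 and 0.0183 CPM, where 3 counts are 0.0506 to 0.0628 CPM. Its log2 fold change ran from -4.89 to -2.81 with 1 library left out. The median log2 fold change of the 41 genes was -1.15, and 19 had Blm Recql KO below Recql KO without overlap, beside 21.1% of all genes, and Ifitm1 above it, beside 22.5%. Without Blm Recql KO replicate 1 the count was 38 lower and 1 higher, 95.1% of the genes beside 20.4% of all genes, with a median of -3.48. Without it the interaction was called for 20 genes, 19 lower and Ifitm1 higher, beside 9.11% of all genes. In Blm Recql KO against WT none of the 41 was called without replicate 1 either (0.0996% of all genes called). The median moved to -0.90, from 0.68 with it, and the log2 fold change was then below 0 for 40 genes. Without it 18 genes had an unadjusted p under 0.05 (43.9%, beside 10.7% of all genes). Replicate 2 was within the WT range for 21 genes and below it for 19, and replicate 3 was below it for 32.

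Markers of blood cells varied within every genotype. The summed CPM of 9 macrophage and blood cell markers was 16.9, 8.96 and 7.56 in Blm Recql KO, 6.23, 7.5 and 10.96 in Recql KO, 11.8, 4.74 and 6.80 in Blm KO and 12.2, 18.6 and 7.89 in WT. In each genotype the library with the highest marker sum was also the highest of its group for most of the 41 genes. These were Blm Recql KO replicate 1 for 40 genes, Recql KO replicate 3 for 34, Blm KO replicate 1 for 28 and WT replicate 2 for 34. Ptprc (CD45), which defines blood cells, was at 0.186 to 1.09 CPM in all 12 libraries, and Tyrobp was at 0 in Recql KO replicates 1 and 2 and in Blm KO replicate 2. The marker sums of Recql KO and WT overlapped. Cd14, a receptor of macrophages, stood at 1.93, 2.5 and 3.13 CPM in Recql KO and 1.31, 1.5 and 1.35 CPM in WT, and rose (log2 difference 0.86 ± 0.21 SE; adjusted p = 0.0116, edgeR). Of the 8 blood cell markers tested it was the 1 called higher, while 2 were called lower, beside 14.2% and 15.6% of all genes. The log2 fold change was below 0 for 6 of the 8, with a median of -0.78. Summed endothelial markers were at 4.24 to 5.84 CPM in Recql KO and 22.2 to 31.5 CPM in WT, and summed epithelial markers at 9.71 to 14.8 CPM in Recql KO and 23.5 to 46.6 CPM in WT. The part of these cell types in the differences was not tested. Among fibroblast markers, Col1a1, Col1a2 and Col3a1 fell and Dcn rose in Recql KO against WT by the edgeR test.

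The ligands were almost silent. Of 21 interferon genes in the table, 14 held no count in any library. Ifnb1, interferon beta, held 0 counts in each Blm Recql KO library, 2, 9 and 7 counts in Recql KO, 0 in each Blm KO library and 0 in each WT library. It was thus seen in the 3 Recql KO libraries and in none of the other 9, Blm Recql KO replicate 1 included. With each group at 0 set to 3 counts in all, Ifnb1 was at least 6.08-fold higher in Recql KO than in WT, and at least 6.57-fold higher than in Blm KO. The 3 counts allow for counting error in the groups at 0 only, the 18 counts of Recql KO enter as observed, and the gene had too few counts to be tested. Ifna4 held 1, 1 and 2.06 expected counts in Recql KO and 0 in the other 9 libraries, each value under 3 counts. Ifnz held the most counts of any ligand and was the 1 ligand tested. It held 12.7, 9.71 and 8.38 expected counts in Blm Recql KO, 9.82, 13.7 and 22.7 in Recql KO, 7.91, 22.1 and 13.2 in Blm KO and 2.82, 4.89 and 9.37 in WT, and was not called in Recql KO against WT (log2 difference 1.5 ± 0.57 SE; adjusted p = 0.0681, edgeR). Ifnab held 4 counts in Blm KO replicate 3 alone. Ifne, Ifna6 and Ifna7 held at most 1 count in any library, Ifne in Blm Recql KO and WT, the others in Blm KO.

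The genes of the receptor and its kinases moved in both directions. Ifnar1 stood at 150.0, 126 and 138 CPM in Blm Recql KO, 137, 135 and 136 in Recql KO, 172, 146 and 158 in Blm KO and 186, 147 and 164 in WT. Ifnar2 stood at 54.1, 45.6 and 44.8 CPM in Blm Recql KO, 56.6, 53.6 and 63.8 in Recql KO, 53.6, 44 and 50.3 in Blm KO and 58.1, 42.5 and 48.3 in WT. Ifnar1 fell slightly in Recql KO against WT (log2 difference -0.29 ± 0.10 SE; adjusted p = 0.0484, edgeR) and Ifnar2 was not called (log2 difference 0.22 ± 0.13 SE; adjusted p = 0.206, edgeR). Of the 11 genes for receptors, kinases and STATs, 3 rose and 3 fell, beside 14.2% of all genes higher and 15.6% lower, with a median log2 fold change of 0.22. Those that rose were Ifngr2 (log2 difference 0.74 ± 0.11 SE; adjusted p = 0.00134, edgeR) and Ifngr1, which form the interferon gamma receptor, and Il10rb, a shared receptor chain. Stat3 and the receptor kinase gene Tyk2 (log2 difference -0.56 ± 0.14 SE; adjusted p = 0.0142, edgeR) fell along with Ifnar1. Of 11 negative regulators, 1 rose, the phosphatase gene Ptpn11 (log2 difference 0.47 ± 0.10 SE; adjusted p = 0.00707, edgeR), and Pias1 and Ptpn1 fell.

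Sensors and other inducers of interferon also moved both ways. Of 14 such genes 7 rose and 2 fell in Recql KO against WT, beside the same shares of all genes (14.2% higher, 15.6% lower), with a median log2 fold change of 0.47. Tlr3, the endosomal receptor for double-stranded RNA, stood at 25.3, 8.5 and 9.48 CPM in Blm Recql KO, 44, 43 and 41.6 in Recql KO, 8.54, 12.8 and 10.6 in Blm KO and 13.4, 14.8 and 9.55 in WT. Its Recql KO libraries lay above every other library, and it rose 3.41-fold (log2 difference 1.77 ± 0.37 SE; adjusted p = 0.00595, edgeR). Mb21d1, which encodes the DNA sensor cGAS (log2 difference 0.70 ± 0.17 SE; adjusted p = 0.0119, edgeR), and the kinase gene Ikbke (log2 difference 0.86 ± 0.18 SE; adjusted p = 0.0059, edgeR) rose as well, as did Ifih1, Ddx58, Mavs and Zbp1. Tmem173, which encodes STING, the partner that relays the cGAS signal, stood at 41.5, 43.1 and 35.6 CPM in Blm Recql KO, 19.1, 25.3 and 24.1 in Recql KO, 41.9, 36.2 and 25.4 in Blm KO and 44.4, 41.3 and 36.9 in WT. It fell in Recql KO against WT (log2 difference -0.84 ± 0.17 SE; adjusted p = 0.00567, edgeR), and so did Irf3. Of 21 other interferon-induced genes outside the 41, 14 rose and 1 fell, with a median log2 fold change of 1.24. Slfn2 rose 10.3-fold (log2 difference 3.37 ± 0.62 SE; adjusted p = 0.00328, edgeR), and Znfx1 and Pml rose with log2 fold changes of 1.24 and 1.11. Samhd1, which depletes nucleotides, was the one that fell (log2 difference -0.95 ± 0.19 SE; adjusted p = 0.00539, edgeR).

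**Figure D5:**
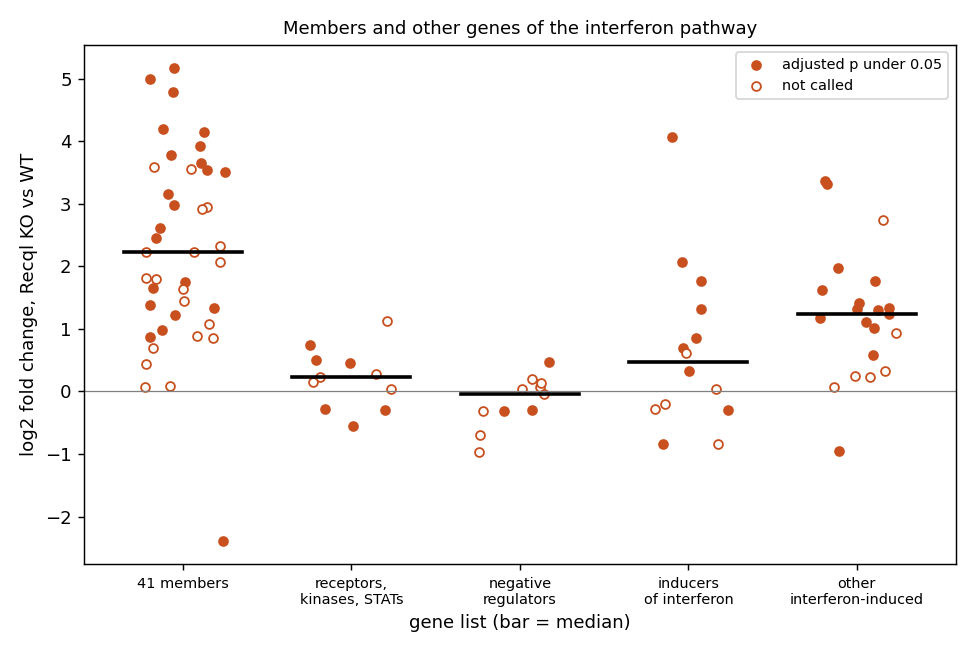
Log2 fold change in Recql KO against WT for the 41 genes and 4 lists of other genes of the interferon pathway (points), with the median of each list as a bar; filled points have an edgeR adjusted p under 0.05. The medians are 2.23 for the 41 genes, 0.22 for receptors, kinases and STATs, -0.04 for negative regulators, 0.47 for inducers and 1.24 for other interferon-induced genes.

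By position, 20 of the 41 genes lie in 7 clusters whose neighbours are at most 300000 bases apart on mm10, each cluster on chromosome 5, 7, 12, 16 or 19. The Ifit cluster spans chr19:34550694-34650009, and Rsad2 and Cmpk2 lie at chr12:26442746-26479837. In the cluster at chr7:140967221-141266481 the genes did not move together: in Recql KO against WT, Irf7 rose, Ifitm1 fell and Ifitm3 was not called. Isg20, which was not called, lies 1.53 Mb from Blm, and Usp18 lies 21.08 Mb from Recql.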

How the data were processed

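Polyadenylated RNA of primary MEFs was sequenced in 12 libraries, 3 per genotype, from libraries made with a stranded mRNA kit per the labels' protocols. Reads were processed with Bowtie2 2.1.0 and RSEM 1.2.15 on mm10, per the submitters' processing notes. The authors deposited a table of expected counts per gene, estimated counts that need not be whole because reads are shared among similar genes. Per library, 17.4% to 20.2% of values had decimals. Which annotation version and strand setting the counting used is not given in the sources used here. Whether reads of overlapping genes on opposite strands were kept apart is therefore not known.

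Expected counts were rounded and tested in R 4.3.3 with edgeR 4.0.16: filterByExpr by genotype, trimmed mean of M values (TMM) scaling, and the robust quasi-likelihood F test with 1 mean per genotype over all 12 libraries (8 residual degrees of freedom). Benjamini-Hochberg adjustment ran over all 14876 genes tested, and an adjusted p under 0.05 was called. DESeq2 1.42.0 was an alternative. The steps were tested on simulated data. Levels are TMM-scaled CPM, and library medians use log2(CPM + 0.05). Positions are from GENCODE on GRCm38 and promoter sequences from RefSeq on GRCm38.p6.

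Every gene of the group is accounted for. Values in each library are given for the representatives of each role, and up to 4 called genes with the smallest adjusted p were named with values from each list of other pathway genes, with Ifnb1, Ifnar1 and Ifnar2 always. A gene that this rule also names is not reported here. Members and lists were chosen with earlier results of these data known. Alternatives were other scaling, other filters, DESeq2, fits on 2 groups only, a replicate block, a covariate for the Y-linked level, libraries high in Y-linked transcripts only (over 100 CPM summed) and leaving out each library. The fits of other pairs without Blm Recql KO replicate 1 were chosen after seeing the data.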

Additional observations from a re-analysis of the deposited data

Results flagged for a closer look

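Ifitm1 differed between the Blm backgrounds in how it went with the Recql label. The interaction, (Blm Recql KO minus Blm KO) minus (Recql KO minus WT), was 2.67 on the log2 scale (edgeR adjusted p = 0.0186). Ifitm1 stood at 3.32, 4.34 and 5.28 CPM in Blm Recql KO, 0.537, 0.740 and 0.799 CPM in Recql KO, 6.07, 2.90 and 1.64 CPM in Blm KO and 4.21, 3.44 and 3.22 CPM in WT. Without Recql KO replicate 1 the interaction was 2.51 with an edgeR adjusted p of 0.0507.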

How the results depend on the processing

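Of the 41 genes, 22 were called in Recql KO against WT, and 14 were without a filter on low counts, 8 with a covariate for the Y-linked level, 10 among libraries high in Y-linked transcripts, 36 in a fit of those 2 groups and 38 without Blm Recql KO replicate 1. As shares, the 22 are 53.7% of the 41 genes, beside 29.9% of all genes. Without the filter the share was 34.1%, beside 19%. With the covariate it was 19.5%, under the 23.6% of all genes. It was 87.8%, beside 31.8%, in the fit of 2 groups and 92.7%, beside 28.3%, without Blm Recql KO replicate 1. Leaving out 1 library of the pair gave 6 to 21 (14.6% to 51.2%, beside 17.9% to 24.7%). DESeq2, which gave an adjusted p for 36, called 1 in Blm KO against WT (2.78%, beside 6.49% of all genes). It called 7 in Blm Recql KO against Blm KO (19.4%, beside 9.86%) and 2 in the interaction (5.56%, beside 17.7%). For these comparisons edgeR called 0, 0 and 1. Leaving out 1 library gave 0 in Blm KO against WT and in Blm Recql KO against WT, beside at most 0.755% and 0.186% of all genes. It gave 0 to 3 in Blm Recql KO against Blm KO (at most 7.32%, beside 0.0597% to 3.88%). The count was 6 to 39 in Blm Recql KO against Recql KO (14.6% to 95.1%, beside 14.3% to 23.4%). It was 27 to 37 in Recql KO against Blm KO (65.9% to 90.2%, beside 27.9% to 38.2%) and 0 to 20 in the interaction (at most 48.8%, beside 3.64% to 12.2%). Among libraries high in Y-linked transcripts, each knockout has 1 library that is assumed to vary like the WT libraries. The median log2 fold change of the 41 genes there was -2.74 in Blm Recql KO against Recql KO and 2.38 in Recql KO against Blm KO. For the interaction the median was -1.47. A fit of Blm Recql KO and Recql KO only called 5 (12.2%, beside 21.8% of all genes). The cause of these changes was not tested, other than that the smaller fits hold fewer libraries. No called log2 fold change changed sign under any of these alternatives. The labels do not say that replicate numbers pair the samples, and correlations of same-numbered libraries ran between -0.157 and 0.235. With the replicate number as a block, 21 genes were called in Recql KO against WT (51.2%, beside 31.5% of all genes). The block fit called 11 in Blm Recql KO against Recql KO (26.8%, beside 26.2%) and 38 in Recql KO against Blm KO (92.7%, beside 41.4%). It called 1 in the interaction (2.44%, beside 10.9%) and 0 elsewhere, beside at most 5.12% of all genes. In Blm KO against WT all 6 libraries correlated best with their own number, a hint from the data and not the design. In Blm Recql KO against WT 4 of 6 did, and in the other pairs 0 to 3 of 6. Over all genes, edgeR called 112 in Blm KO against WT (DESeq2 964, Y-linked covariate 43, high in Y-linked transcripts 2, leaving out 1 library 31 to 114). It called 18 in Blm Recql KO against WT (DESeq2 339, block 50, covariate 42, high 3, 2 groups 0, leaving out 8 to 28) and 291 in Blm Recql KO against Blm KO (DESeq2 1408, block 762, high 0, 2 groups 8, leaving out 9 to 585). It called 1554 in the interaction (DESeq2 2625, covariate 817, high 5, leaving out 549 to 1836), 4444 in Recql KO against WT (high 1128, leaving out 2692 to 3715), 3681 in Blm Recql KO against Recql KO (high 373, leaving out 2157 to 3519) and 5985 in Recql KO against Blm KO (high 1405).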
